A study of Mus musculus with 4 samples.

Results

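The genes described here are 39 genes of interferon signalling, named as a list by symbol: 4 receptor chains (Ifnar1, Ifnar2, Ifngr1, Ifngr2), 3 receptor-bound kinases (Jak1, Jak2, Tyk2), 7 interferon regulatory factors (IRF), 6 STAT factors, 16 stimulated effector genes and 3 genes of class I antigen presentation. All 39 had a row among the 27293 genes of the count table. They were taken by name and not by any measured value. The roles were set by name too, and whether interferon induces a gene was not tested.

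STING is an adaptor of the endoplasmic reticulum that responds to cytosolic DNA by way of the sensor cGAS. It activates the kinase TBK1, which phosphorylates IRF3, and type I interferon genes are then transcribed. Secreted type I interferon binds the receptor pair IFNAR1 and IFNAR2 and interferon gamma binds IFNGR1 and IFNGR2. The receptor-bound kinases JAK1, TYK2 and JAK2 phosphorylate STAT proteins, and STAT and IRF complexes switch on the interferon-stimulated genes, many of which restrict viruses or present antigen.

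The count of reads per gene was measured by bulk RNA sequencing of C57BL/6 telencephalic tissue at embryonic day 13 (E13) in 4 libraries, 2 labelled WT and 2 labelled cKO (genotype STINGf/f;Nestin-Cre). Paired values below give replicate 1 and then replicate 2 of a group. Nestin-Cre is active in neural progenitors and their progeny, so vessel, meningeal, blood and microglial cells are not its main targets. Total counts ran from 17209654 to 18533391 per library, and a count of 0 allows up to 3 counts by counting error, or 0.162 to 0.174 CPM (counts scaled to library size). Nothing in the labels says whether libraries of a group came from separate embryos or litters, so the p-values measure the spread between these libraries.

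The STING gene (Tmem173, ENSMUSG00000024349) had 20 and 19 counts in the WT pair against 18 and 22 in the cKO pair. Reads on any exon of the gene, floxed or not, and from any cell of the tissue add to this value, so it checks no label, and each library goes by its label throughout. The title of WT 2 carries another abbreviation (nes) than that of WT 1, which the labels do not explain. Summed over Ddx3y, Eif2s3y, Kdm5d and Uty, all on chromosome Y, the counts were 2735 and 0 in the WT pair against 3002 and 1848 in the cKO pair, so WT 2 stood apart. The tissue label was checked with marker lists: 8 neuronal markers summed to 5666 to 6695 CPM and 8 cortical progenitor markers to 2114 to 2356 CPM. Markers of other cells were present too, and 4 of their lists were highest in WT 1 for all or nearly all genes tested: meninges and mesenchyme (8 of 8), choroid plexus (3 of 3), blood (6 of 6) and microglia (11 of 12). In bulk tissue, fewer cells of a type and less RNA per cell cannot be told apart.

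Per kilobase of exon (CPM per kb, the scale used for all comparisons of level between genes, with the length of all annotated exons merged), the median level was 10.8 for the receptor chains, 7.89 for the kinases, 7.92 for class I genes, 2.88 for the STAT factors, 0.429 for the IRF factors and 0.319 for the stimulated effectors. Ifngr2, the signalling chain of the interferon gamma receptor, was first at 18.2 CPM per kb, followed by B2m at 16.9, Ifnar1 at 16.7 and Irf3 at 13.9. Ifngr2, B2m, Ifnar1 and Irf3 overlapped in their ranges over libraries, so the order of these 4 is not resolved. At the other end stood Rsad2 (0.0193), Mx2 (0.0191) and Mx1 (0.0109), none of which had more than 4 counts in a library. The count table labels Mx2 as a polymorphic pseudogene, not as a protein-coding gene. In all, the 39 genes took 599 to 611 CPM in each library.

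**Figure D1:**
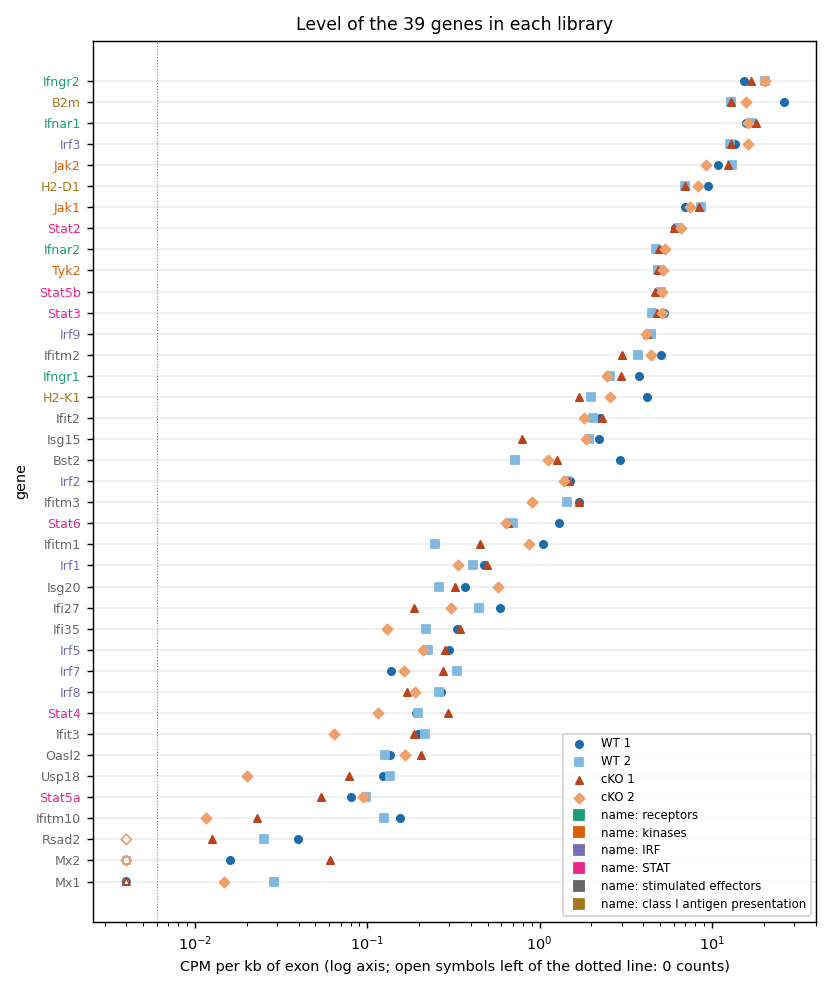
Level of each of the 39 genes (rows, ordered by their mean; the colour of the name gives the role) in CPM per kb of exon on a log axis, with 1 symbol for each of the 4 libraries. Ifngr2, B2m, Ifnar1 and Irf3 lie at the high end, Mx1, Mx2 and Rsad2 at the low end, and the 4 symbols of a gene spread more widely as the level falls.

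Among the 7 IRF genes, the level per kb was split. Irf3, the factor that STING reaches by way of TBK1, and Irf9, a DNA-binding partner of STAT2, were at 13.9 and 4.29 CPM per kb. Irf2 was at 1.46, while Irf1, Irf5, Irf7 and Irf8 were between 0.223 and 0.429. The STAT genes were split likewise, with Stat2 at 6.26, Stat5b at 4.94 and Stat3 at 4.94 CPM per kb against 0.825 for Stat6, 0.200 for Stat4 and 0.0817 for Stat5a. Stat5b and Stat3 overlapped in their ranges over libraries. Among effectors, Ifitm2, which restricts viral entry, was highest at 4.06 CPM per kb. Ifit2, which binds viral RNA and blocks its translation, followed at 2.10, with Isg15, a ubiquitin-like modifier, at 1.70. Ifit2, Isg15 and Bst2 overlapped in their ranges over libraries, so their order is not resolved.

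Several of the genes neighbour each other. With a gap of at most 200 kb, 13 of the 39 genes fell into 5 clusters. Ifnar2, Ifnar1 and Ifngr2 lay within chr16:91372783-91565169, Stat5b, Stat5a and Stat3 within chr11:100780731-100939540 and Ifitm2, Ifitm1 and Ifitm3 within chr7:140954837-141010770, with the pairs Mx1 and Mx2 on chromosome 16 and Ifit2 and Ifit3 on chromosome 19. The levels in a cluster were not alike: Stat5a stood at 0.0817 CPM per kb between Stat5b and Stat3, both at 4.94.

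STAT and IRF complexes recognise short elements in promoters. The interferon-stimulated response element (ISRE), with the core GAAANNGAAA, is bound by complexes that hold STAT2 and IRF9 and by IRF factors, and the gamma-activated sequence (GAS), with the core TTCNNNGAA, by STAT dimers. Both cores were searched on both strands in RefSeq promoters (GRCm38.p6) of 300 bases, from 250 before to 50 after the gene start, which were matched for 35 of the 39 genes (Mx1, Mx2, Usp18 and Ifi27 were not matched). The ISRE core was found for 10 of these 35 genes (28.6%): B2m, Bst2, Ifit3, Ifitm2, Ifitm3, Irf2, Isg15, Rsad2, Stat2 and Stat4. Counted per gene in the same way, it was found for 1079 of 27025 genes with a promoter (3.99%), and per promoter in 1131 of 32851 (3.44%). By role, it was found for 7 of 15 effector and class I genes and for 3 of the other 20. The GAS core was found for 10 of 35 genes (Bst2, Ifi35, Ifit2, Ifitm3, Ifnar1, Ifnar2, Irf1, Irf2, Irf8 and Isg20) against 2582 of 27025 genes (9.55%), or 2726 of 32851 promoters (8.30%). The core letters are short and a match is a description of these windows, not a binding site. Of the 9 genes with an ISRE core before the start, 7 are printed below, and Irf2 and Stat4 are left out, to show how the matches differ between an abundant gene, genes with several cores and genes near 0 counts. The capitals mark the matched core, which reads as its reverse complement (TTTC) where it lies on the other strand.
B2m, chr2:122147538-122147567, plus strand: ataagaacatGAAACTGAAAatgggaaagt
Isg15, chr4:156200865-156200906, minus strand, 3 overlapping matches: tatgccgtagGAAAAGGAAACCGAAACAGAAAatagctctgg
Bst2, chr8:71537577-71537612, minus strand, 2 overlapping matches: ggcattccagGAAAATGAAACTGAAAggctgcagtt
Ifit3, chr19:34583363-34583426, plus strand, 2 matches: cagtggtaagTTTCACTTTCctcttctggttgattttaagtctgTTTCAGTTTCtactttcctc
Stat2, chr10:128270266-128270295, plus strand: cgcaccctggTTTCAGTTTCctttccctag
Ifitm2, chr7:140955988-140956017, minus strand: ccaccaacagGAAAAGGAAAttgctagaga
Rsad2, chr12:26456553-26456582, minus strand: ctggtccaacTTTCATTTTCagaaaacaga

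The GAS core is shown for Irf1, an IRF gene that responds to interferon gamma, and for Ifnar2, a receptor chain, with the matched core in capitals. It began 90 bases before the start of Irf1 and 214 bases before that of Ifnar2.
Irf1, chr11:53769910-53769946, plus strand: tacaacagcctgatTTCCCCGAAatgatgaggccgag
Ifnar2, chr16:91372555-91372591, plus strand: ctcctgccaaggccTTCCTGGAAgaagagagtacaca

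Genes with an ISRE core had a median of 1.48 CPM per kb (n = 10, from 0.0193 for Rsad2 to 16.9 for B2m), and genes without it 2.61 (n = 25, from 0.0787 to 18.2). In Isg15 the matches began 78 bases before the start and in Ifit3 156 bases before it, and these genes stood at 1.70 and 0.167 CPM per kb.

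To ask whether these genes differ with the labelled STINGcKO genotype, the 2 libraries labelled cKO were compared with the 2 labelled WT. Of the 39 genes, 34 passed the filter on low counts, and Ifit3, Usp18, Rsad2, Mx1 and Mx2 did not. Genes were called at the study's thresholds, that is a change of 2-fold or more with an unadjusted p up to 0.05, here from edgeR's quasi-likelihood test. Among the 34 genes, 1 was called, Ifitm10, which was lower in cKO. Across all 16145 genes tested, 0.811% were called in either direction and 0.669% as lower in cKO. After Benjamini-Hochberg adjustment over all genes, no gene of the table had an adjusted p under 0.05 (edgeR, smallest adjusted p = 0.99998; 199 genes had an unadjusted p under 0.05). The receptor, kinase, IRF, STAT and class I genes thus held no call, which with 2 libraries a group does not show that the groups were alike.

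The differences were small for most genes. The log2 fold change (cKO over WT) was below 0 for 22 of 34 genes and above 0 for 12. Of all 16145 genes tested, it was below 0 for 8412 and above 0 for 7733. The median was -0.09, against -0.01 for all genes tested. It was 0.02 without WT 1, -0.12 without WT 2, -0.13 without cKO 1 and -0.03 without cKO 2. In 27 of 34 genes (79.4%) the size was under 0.5 on the log2 scale, against 90.6% of all genes. Both cKO libraries were below both WT libraries in 6 genes (17.6%; 10.8% of all genes), and above them in 2 genes (5.88%; 11.0% of all genes). The 6 were Ifitm10, Ifi27, Isg15, Stat6, Irf8 and Irf9, and the 2 were Ifnar2 and Oasl2. In the other 26 genes the groups overlapped. With 2 libraries a group, an exact permutation test cannot give a p below 0.333.

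**Figure D2:**
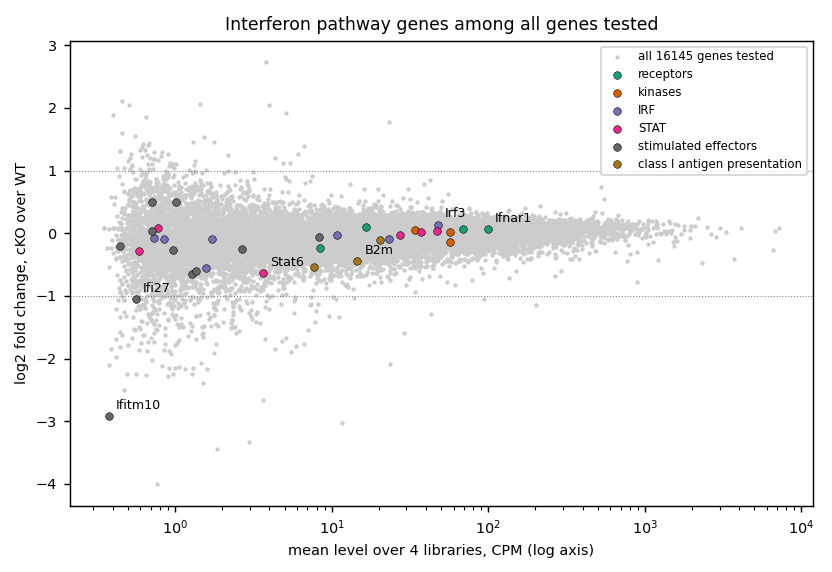
Log2 fold change (cKO over WT) against the mean level in CPM on a log axis for all 16145 genes tested (grey) and the 34 interferon pathway genes tested (coloured by role), with dotted lines at a fold change of 2. Ifitm10 lies at -2.92 and Ifi27 at -1.06 on the log2 scale, and the other 32 genes lie between the lines.

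The receptor chains were at similar levels in both groups. Ifnar1, the chain of the type I receptor bound to TYK2, had 93.5 and 100.4 CPM in the WT pair against 107 and 96.5 in the cKO pair, with overlapping groups. Its log2 fold change was 0.07 (standard error 0.15, 95% interval -0.27 to 0.41). Ifnar2, the chain bound to JAK1, had 16.1 and 15.8 CPM in the WT pair against 16.3 and 17.7 in the cKO pair. Both cKO values of Ifnar2 lay above both WT values, but by little: the log2 fold change was 0.09 (95% interval -0.36 to 0.54). Ifngr1, the chain that binds interferon gamma, had 10.8 and 7.27 CPM in the WT pair against 8.41 and 6.99 in the cKO pair, and Ifngr2 had 57.9, 76.4, 63.3 and 76.8. In Ifngr2 the lowest library was WT 1 and the others were mixed, so the groups overlapped. The 95% intervals of the 4 receptor chains ran from -0.90 to 0.54 in all, so a 2-fold change in either direction lay outside each of them.

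The kinases did not separate the groups either. Jak1 had 50.7 and 62.6 CPM in the WT pair against 60.7 and 54.0 in the cKO pair. Tyk2, which serves the type I receptor, lay between 33.3 and 35.8 CPM in all 4 libraries. Jak2, which serves the interferon gamma receptor, had 54.5, 65.6, 62.7 and 46.3 CPM, with the lowest value in cKO 2. Their log2 fold changes were 0.02 for Jak1, 0.05 for Tyk2 and -0.14 for Jak2 (standard error 0.20).

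**Figure D3:**
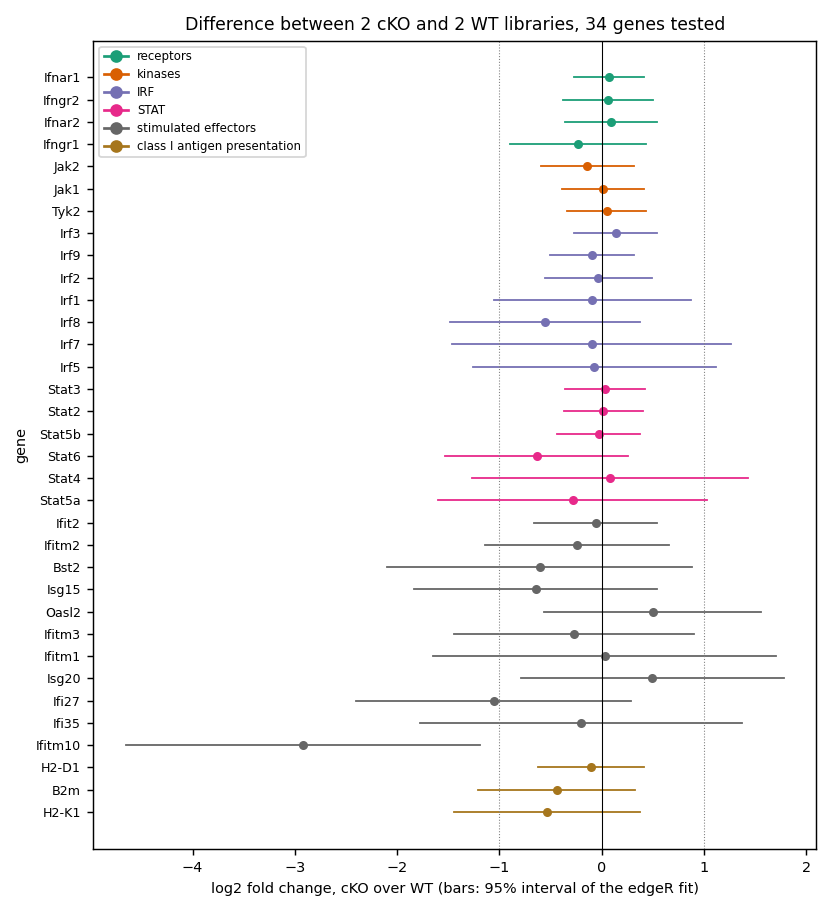
Log2 fold change (cKO over WT) of the 34 genes tested, grouped by role and ordered by level, with the 95% interval of the edgeR fit as a bar and dotted lines at a fold change of 2. The interval of Ifitm10 (-4.65 to -1.19) is the only one of the 34 that excludes 0, and intervals widen from the receptor chains to the low effectors.

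Irf3 had 46.9 and 44.0 CPM in the WT pair against 44.4 and 55.6 in the cKO pair. Its cKO 2 value was the highest and cKO 1 lay between the WT libraries, so the groups overlapped, with a log2 fold change of 0.14 (standard error 0.18, 95% interval -0.27 to 0.55). STING acts on IRF3 by way of TBK1, which phosphorylates IRF3, and these counts do not measure phosphorylation. Irf9 had 23.7 and 24.0 CPM in WT 1 and WT 2 and 22.5 and 22.2 in cKO 1 and cKO 2, without overlap, but the log2 fold change was -0.09 (95% interval -0.50 to 0.31). Irf2, which represses and activates ISRE genes, was even, from 10.3 to 11.1 CPM. Irf1, induced by interferon gamma, and Irf7, the amplifier of type I interferon, were low (24 to 36 and 9 to 23 counts) with overlapping groups and log2 fold changes of -0.09 and -0.10. Irf5 had 11 to 15 counts, and 14.2% of its exon bases are shared with Tnpo3 on the other strand, which had 7150 counts in the 4 libraries. Since the strand used for counting is not given in the sources used here, reads of Irf5 and Tnpo3 cannot be told apart in the shared bases. The same holds for the 1.19% of exon bases that Irf7 shares with Phrf1 (12773 counts) and the 1.01% that Stat5a shares with Stat3 (3385 counts), each on the other strand.

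Irf8, a factor of microglia and other myeloid cells, had 1.90 and 1.84 CPM in the WT pair against 1.20 and 1.34 in the cKO pair. The groups did not overlap, with a log2 fold change of -0.55 (standard error 0.40, 95% interval -1.49 to 0.38) that was not called. The 12 microglial markers summed to 60.4 and 43.3 CPM in WT 1 and WT 2 and to 38.6 and 48.7 CPM in cKO 1 and cKO 2. Of the 12, 11 had a log2 fold change below 0 (median -0.23), against 8412 of all 16145 genes tested, and none was called. Both cKO values were below both WT values in 3 of them (25%, against 10.8% of all genes): Csf1r, Fcrls and P2ry12. In the other 9 the groups overlapped. None of the 12 was at 0 in a library, the sums of the groups overlapped, and their part in the value of Irf8 was not tested.

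Of the STAT genes, Stat2, a factor of the type I response, had 36.1 and 37.6 CPM in the WT pair against 35.5 and 39.2 in the cKO pair. Stat3, which also serves the IL-6 family and gp130, had 50.5, 42.6, 46.0 and 49.1 CPM, and Stat5b, a factor of cytokine and growth hormone signalling, had 27.3, 27.9, 25.8 and 28.4 CPM. The log2 fold changes of Stat2, Stat3 and Stat5b were 0.02, 0.03 and -0.03. Stat4 and Stat5a had 8 to 21 and 7 to 13 counts, and their groups overlapped.

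Stat6, the factor of IL-4 and IL-13 signalling, had 100 and 57 counts in the WT pair against 53 and 50 in the cKO pair. In CPM the values were 5.74, 3.09, 2.89 and 2.79, so that WT 1 stood above the other 3, which lay close together. The log2 fold change was -0.63 (standard error 0.39, 95% interval -1.53 to 0.26), and it was -0.12 without WT 1 and -0.9998 without WT 2, not called in either.

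Ifitm10 (ENSMUSG00000045777, chr7:142325837-142373753 of GRCm38, minus strand), a member of the interferon-induced transmembrane family, had 13 and 11 counts in the WT pair against 2 and 1 in the cKO pair. The WT libraries lay at 0.747 and 0.597 CPM and the cKO libraries at 0.109 and 0.0559 CPM. The fitted log2 fold change was -2.92 (standard error 0.75, 95% interval -4.65 to -1.19; edgeR's adjusted p = 0.99998). As a ratio of summed counts, cKO over WT was 0.123, and its exact 95% interval, 0.0237 to 0.405, takes in counting error alone. At 0.0787 CPM per kb, Ifitm10 was the 36th of the 39 genes by level, and 4.49% of its exon bases are shared with Gm49369 on the same strand. Neither the ISRE core nor the GAS core was found in the 3 promoters of Ifitm10. Ifitm10 passed the filter on low counts through its WT libraries, and it was not tested without WT 1. Without cKO 2 its log2 fold change was -2.53 and it was not called. The 3 other genes of its family in the list were not called. Ifitm1 had 20 and 5 counts in the WT pair against 9 and 17 in the cKO pair, Ifitm2 58, 45, 36 and 52, and Ifitm3 20, 18, 21 and 11, each with overlapping groups. Of the exon bases of Ifitm2, 40.9% are shared with Gm45717 on the same strand.

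Among the other effectors, Isg15 had 29 and 27 counts in the WT pair against 11 and 25 in the cKO pair. The groups did not overlap, but cKO 2 was close to WT 2 and the value rests on cKO 1, with a log2 fold change of -0.65 (standard error 0.52), with -0.16 without cKO 1 and -1.36 without cKO 2, not called in any of these fits. Ifi27, an interferon-inducible membrane protein, had 15 and 12 counts in the WT pair against 5 and 8 in the cKO pair. Its log2 fold change was -1.06 (standard error 0.58, 95% interval -2.40 to 0.29), not called. Bst2 (tetherin, which holds virus particles at the cell surface) had 46 and 12 counts in the WT pair against 21 and 18 in the cKO pair, so WT 1 was the highest and WT 2 the lowest library. Its log2 fold change was -0.60, with 0.72 without WT 1 and -1.28, then called, without WT 2. These 2 WT libraries differed 4.06-fold in Bst2.

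Oasl2, of the oligoadenylate synthetase family, and Isg20, an exonuclease, had the highest log2 fold changes of the list, at 0.50 and 0.49. Oasl2 had 15 counts in each WT library, 24 in cKO 1 and 19 in cKO 2, and Isg20 had 12 and 9 in the WT pair against 11 and 19 in the cKO pair. Neither was called, and the value of Isg20 rests on cKO 2, being 0.044 without cKO 2 and 0.85 without cKO 1. Ifit2 was at 7.10 to 9.06 CPM and Ifi35 at 4 to 11 counts, with overlapping groups. Of the 5 untested genes, Ifit3 had 6 and 7 counts in the WT pair against 6 and 2 in the cKO pair, and Usp18, a protease that removes ISG15, had 6, 7, 4 and 1. Rsad2 had 3, 2, 1 and 0 counts, Mx1 had 0, 2, 0 and 1 and Mx2 had 1, 0, 4 and 0, so a difference in them was not detectable at this depth.

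The class I genes were highest in WT 1. B2m (ENSMUSG00000060802), the invariant light chain of class I molecules, had 390 and 204 counts in the WT pair against 204 and 242 in the cKO pair. The heavy chain genes H2-K1 and H2-D1 had 214, 108, 91 and 135 and 425, 331, 328 and 384 counts in the same order. For all 3 genes the other WT library was below cKO 2, so the groups overlapped. WT 1 was 2.02 times WT 2 in B2m, 2.10 times in H2-K1 and 1.36 times in H2-D1. The log2 fold changes were -0.44 (standard error 0.33), -0.54 (0.39) and -0.11 (0.22). Without WT 1 they were 0.16, 0.09 and 0.13, and without WT 2 -0.85, -0.96 and -0.30. Without cKO 1 they were -0.30, -0.26 and 0.02, and without cKO 2 -0.57, -0.85 and -0.23.

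Across the list, 16 of the 34 tested genes (47.1%) were highest in WT 1, against 25.1% of all genes tested, and among effectors it was 7 of 11. The summed markers of every non-neural list were highest in WT 1 as well. Of single markers tested, WT 1 was highest in 7 of 9 for endothelium and 4 of 6 for pericytes. Both cKO values were below both WT values in 5 of the 9 endothelial markers (10.8% of all genes). Of the markers tested, 3 of 8 for meninges and mesenchyme and 2 of 3 for choroid plexus were called lower in cKO (0.669% of all genes). No endothelial, pericyte, blood or microglial marker was called. In the order WT 1, WT 2, cKO 1 and cKO 2, the summed markers were 229, 179, 155 and 156 CPM for endothelium and 126, 89.7, 86.1 and 84.3 for pericytes. Meninges and mesenchyme markers were at 318, 72.2, 95.1 and 52.0 CPM, choroid plexus markers at 46.8, 9.00, 7.31 and 9.22 and blood markers at 771, 369, 303 and 471. Folr1, of the choroid plexus list, was at 0 in WT 2, and no other marker with a row in these lists was at 0 in a library. Of the 8 choroid plexus markers listed, 6 were analysed here. Progenitor and neuronal sums moved far less, and their highest libraries were cKO 2 and WT 2. The part of these cells in the class I values was not tested.

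**Figure D4:**
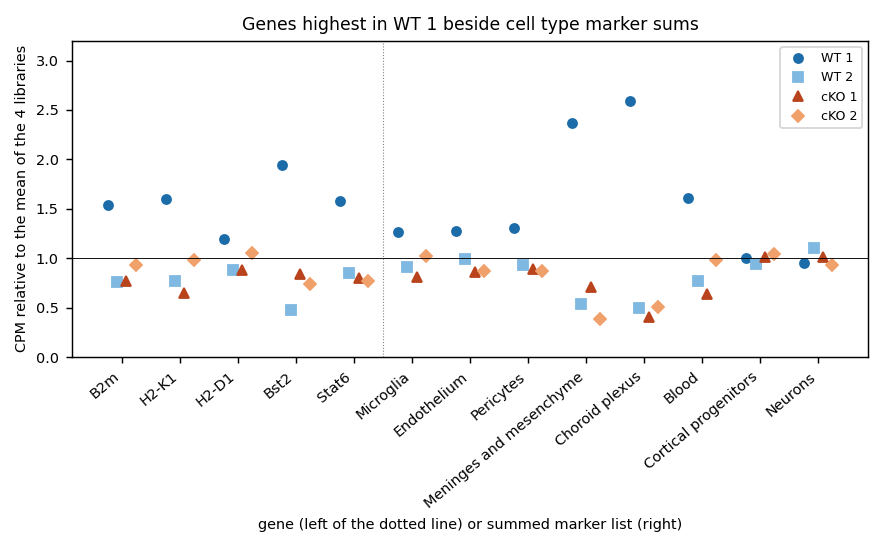
B2m, H2-K1, H2-D1, Bst2 and Stat6 (left) and summed cell type marker lists (right) in each library, in CPM relative to the mean of the 4 libraries. The 5 genes were picked from the 16 of 34 tested genes that were highest in WT 1. WT 1 is also above the other 3 libraries in the 6 non-neural lists, and near 1 for cortical progenitors and neurons.

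The libraries also differed in the trend of counts with the GC content of transcripts. Across 14615 genes with a mean of at least 1 CPM, the log2 ratio of cKO 2 over the mean of the other 3 libraries had a Pearson r of 0.562 and a Spearman rho of 0.616 with GC content, as a description across genes that share libraries and are not replicates. In cKO 1 the r was -0.459. Of the 24 interferon pathway genes at that level, r was 0.301 for cKO 2 and -0.307 for cKO 1. All 3 genes of the lowest of 4 equal GC classes (B2m, Ifit2 and Jak2) were below 0, with a median log2 ratio of -0.28, against -0.38 for all genes of that class. The 4 genes of the highest class (Bst2, H2-D1, Irf3 and Tyk2) had a median of 0.10, against 0.21. Jak2, at 44.3% GC, had its lowest value in cKO 2, and Irf3, at 56.7% GC, its highest. With offsets corrected for GC content, the log2 fold change of Irf3 was 0.08, of Jak2 -0.09 and of B2m -0.21. These 3 values were nearer 0 than in the main fit, but the list as a whole did not move toward 0. Its median was -0.12 with the correction and -0.09 in the main fit, with 24 and 22 of 34 genes below 0. Irf3 and Jak2 were not called either way, and the part of GC content in their values was not tested further.

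**Figure D5:**
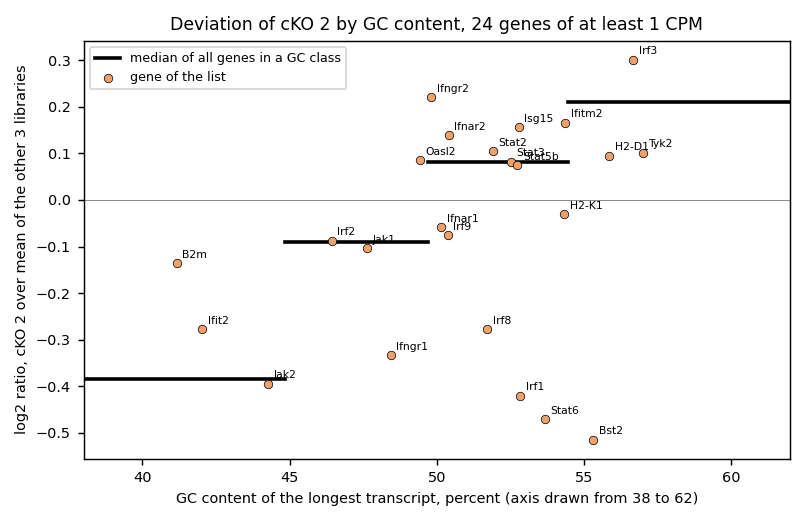
Log2 ratio of cKO 2 over the mean of the other 3 libraries against GC content of the longest transcript, for the 24 genes of at least 1 CPM (points) with the median of all genes in each of 4 equal GC classes (black lines; the outer classes run beyond the axis). Jak2 lies at the all-gene median of the lowest class and Irf3 above that of the highest, while Bst2, Stat6 and Irf1 lie well below the medians of their classes.

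Other genes of the pathway were read from lists set by name. Of 12 listed ligand genes, 3 had a row: Ifnk with 2 counts in WT 2 only and Ifnz and Ifnab each with 1 count in cKO 2 only. Ifnlr1, the receptor chain for interferon lambda, had 11 and 9 counts in the WT pair against 3 and 6 in the cKO pair and was not tested, and Il10rb, its partner chain, had a log2 fold change of -0.39 (standard error 0.50).

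Of 16 inhibitors of JAK-STAT signalling, all 16 were tested, 11 had a log2 fold change below 0 and 5 above 0, and none was called (median -0.05, range -0.54 to 0.29). The 4 with the most counts were Ptpn11 (-0.11), Ptpn1 (0.12), Socs7 (-0.06) and Pias2 (-0.04). Of 40 further interferon-stimulated genes, 39 had a row and 22 were tested, 17 below and 5 above 0, with none called (median -0.10, range -0.99 to 0.64), and the 4 with the most counts were Adar (0.04), Pml (0.00), Shisa5 (0.01) and Mov10 (-0.05). Of 14 genes of antigen presentation, 9 were tested, 6 below and 3 above 0, with none called (median -0.01), and the 4 with the most counts were Calr (0.23), Pdia3 (-0.01), Tapbp (-0.06) and Psmb10 (0.33). Of the 22 further stimulated genes tested, 63.6% were highest in WT 1, against 25.1% of all genes tested. For comparison with the directions in these lists, 8412 of all 16145 genes tested were below 0 and 7733 above 0.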

How the data were processed

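RNA-seq counts of 2 WT and 2 cKO libraries were analysed. The authors deposited raw counts of reads per gene, and the submitters' processing notes name Bowtie2 2.2.3, TopHat2 2.0.12, HTSeq 0.6.0 and build mm9. The gene positions match GRCm38 in 97.2% of 27232 genes and were read as such. From the 4-library table, 11 rows without a gene name were left out. A second table of WT 1 and cKO 1 holds the same counts for all 21342 shared genes. Columns of the authors' own fold changes and p-values and of normalized values were not used.

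The quasi-likelihood test of edgeR 4.0.16 (R 4.3.3) was run without covariates after TMM scaling and filterByExpr, with Benjamini-Hochberg adjustment over all 16145 genes tested. CPM were scaled with TMM factors. The alternatives were RLE and upper-quartile scaling, other count filters, DESeq2 1.42.0, a replicate block, each library left out, and GC-corrected offsets, which were added after the data were seen. Reads shared between paralogs (Ifitm, class I and Mx genes) could not be assessed. The procedure was tested on simulated counts. Replicate numbers come from the sample descriptions and only name the libraries.

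All 39 genes are named. Of the other pathway lists, genes called and the 4 with most counts in each are named, and the few others named (Ifnk, Ifnz, Ifnab, Ifnlr1, Il10rb, Folr1, Tnpo3, Phrf1, Gm49369, Gm45717, Csf1r, Fcrls and P2ry12) were chosen after their values were seen. The genes and lists were chosen with earlier results of these data known. Promoter sequences are from RefSeq (GRCm38.p6).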

Additional observations from a re-analysis of the deposited data

How the results depend on the processing

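Ifitm10 was the 1 gene of the list called under RLE and upper-quartile scaling, DESeq2, no filter, the replicate block and GC-corrected offsets. Under a filter that asks for at least 10 counts in each library it was not tested and 0 genes of the list were called. Leaving out 1 library gave 0 to 2 genes of the list called, with Bst2 as the addition without WT 2, and a median log2 fold change of the list from -0.13 to 0.021. Then 1 library stands alone in its group and is assumed to vary like those of the other group.

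Of all genes, 131 were called, against 405 without a filter, 72 under the filter of at least 10 counts, 65 with DESeq2, 208 with the replicate block and 104 to 531 without 1 library. Genes with an adjusted p under 0.05 numbered 0, against 65 without a filter, 5 with the replicate block and 0 to 116 without 1 library. Deviations of same-numbered libraries correlated with r = 0.108 over 16145 genes, and with 2 libraries a group the numbers were not read as pairs. The causes of these differences were not tested.

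Of 230 log2 fold changes of single genes under settings that keep all libraries, 225 kept their direction and their side of the thresholds. With GC-corrected offsets the direction turned for Ifit2 (0.041), Ifitm1 (-0.019), Stat2 (-0.020) and Stat3 (-0.015), and with the replicate block for Stat4 (-0.0057). Without 1 library, the direction turned at least once in 24 of 34 genes, none of them called with all libraries. The log2 fold changes without 1 library ranged for B2m -0.85 to 0.16, for Bst2 -1.28 to 0.72, for H2-D1 -0.30 to 0.13, for H2-K1 -0.96 to 0.094, for Ifi35 -1.06 to 0.34, for Ifit2 -0.24 to 0.12, for Ifitm1 -0.66 to 1.39, for Ifitm2 -0.54 to 0.014, for Ifitm3 -0.78 to 0.12, for Ifnar1 -0.0057 to 0.16, for Ifngr1 -0.48 to 0.082 and for Ifngr2 -0.13 to 0.29. They ranged further for Irf1 -0.39 to 0.17, for Irf2 -0.080 to 0.032, for Irf3 -0.019 to 0.29, for Irf5 -0.29 to 0.14, for Irf7 -0.59 to 0.68, for Jak1 -0.13 to 0.19, for Jak2 -0.37 to 0.076, for Stat2 -0.041 to 0.089, for Stat3 -0.075 to 0.16, for Stat4 -0.74 to 0.61, for Stat5a -0.72 to 0.068 and for Stat5b -0.088 to 0.044. Depth limits the low effectors most, since a few reads there set the value.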
